A study of Mus musculus with 4 samples.

Results

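Bhlhe40, Bhlhe41, Arntl, Clock and Npas2 are 5 genes of the basic helix-loop-helix (bHLH) class that belong to the circadian clock, and their transcripts were read out in the brains of offspring whose mothers received excess folic acid (FA). The 5 rows were found by symbol among the 19465 features of the count tables, and each symbol gave 1 row. Bhlhe40 was selected on its change between the diets, which had differed between the cortex and the hypothalamus in an earlier reading of these same sections, and the other 4 genes were added as its paralog and as the activators it opposes. The values of the members between the diets are therefore given as a description, without a test. Their distribution over areas of the section was not used in the choice. For Bhlhe40, however, the means and area tests pool MF with the HF sections that showed the change.

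The 4 sections were wild-type mouse brains, taken from male pups at postnatal day 21 and measured by Visium-FFPE, in which probes for each transcript are counted per spot of a fixed slice, of C57BL/6J mothers kept on a 12-hour light/dark cycle. In the MF group (2 sections) the mothers ate a control diet with 2 mg/kg FA, and in the HF group (2 sections) a diet with 20 mg/kg FA. Either diet began before mating and went on through pregnancy and lactation, so that the pups differ in exposure before and after birth together. The time of day at which the brains were taken is not given in the sources used here, and neither is the mother or litter of each pup, so the 2 sections of a group may be closer to each other than animals of separate litters. Total counts ranged from 34983708 to 90098381 unique molecular identifiers (UMIs) per section, with MF replicate 1 the deepest and HF replicate 1 the shallowest. After removal of 18 shallow spots, 13452 of 13470 remained. Levels are given as CPM, the UMIs of a gene divided by all UMIs of the same section and area and scaled to 1000000; they are compared within a gene, not between genes.

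In the molecular clock, BMAL1 (the product of Arntl) pairs with CLOCK or with its paralog NPAS2, and the pair binds E-box sequences in promoters and activates transcription. Among the genes it activates are Per1, Per2, Cry1 and Nr1d1, whose products repress the pair or the Arntl gene and so close the loop. BHLHE40 and BHLHE41 (also known as DEC1 and DEC2) are transcriptional repressors that bind E-boxes as well and compete with the activators there. Bhlhe40 also responds to stimuli outside the clock, among them neuronal activity and low oxygen. NPAS2 is known in the forebrain, where it can take the place of CLOCK.

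The canonical E-box has the letters CACGTG, which read the same on either strand. RefSeq promoter windows of 300 bases (250 before and 50 after a gene's start, build GRCm38.p6) were found for 4 of the 5 members, that is for Bhlhe41, Arntl, Clock and Npas2 and not for Bhlhe40. Of these 4, Bhlhe41 held CACGTG in its window. Of the 16 genes with a window among the clock repressors and outputs, 4 held it, namely Per1, Cry1, Ciart and Tef. Over all 32851 windows the share with CACGTG was 7.15%. That share is counted by window, whereas the counts above are by gene, and some genes have several windows, so they are not alike. The stretches around the motif are shown for Bhlhe41, the only member with a match, and for Per1, a target of the loop whose level changed between the diets below. The capitals mark the E-box, and 50 bases stand on each side of it. The stretch of Bhlhe41 lies on the minus strand at chr6:145865518-145865623, with the first base of the E-box at -153 relative to the start of that window's RefSeq transcript. The stretch of Per1 lies on the plus strand at chr11:69098733-69098838, with the first base of the E-box at -166 relative to such a start.
Bhlhe41: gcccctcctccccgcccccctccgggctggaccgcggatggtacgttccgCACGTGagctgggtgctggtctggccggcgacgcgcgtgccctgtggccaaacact
Per1: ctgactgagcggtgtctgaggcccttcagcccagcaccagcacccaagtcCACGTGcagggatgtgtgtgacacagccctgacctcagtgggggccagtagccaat

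Spots were grouped by their transcripts into areas that resemble known parts of the brain, without the 5 members or the listed genes. The names stand for similarity to marker genes. The cortex (CTX) has layers L2-3, L4, L5 and L6 and an olfactory-like part (OLF), and the surface area is named L1. L1 joins spots led by Ndnf and Reln with spots led by Ptgds, Acta2 and Col1a1. It therefore holds meninges and vessels and is not cortical layer 1 alone. The fields CA1 and CA2-3 and the dentate gyrus (DG) belong to the hippocampus (HP). The others are the thalamus (TH), the medial habenula (MHb), the hypothalamus (HY), the striatum (STR) and white matter (WM). A spot holds several cells, and less RNA per cell cannot be told apart from fewer cells of a type. A marker picked for each area had its highest mean there, for example Prox1 in DG with 743 CPM against 149 CPM in the next area. Chrnb4 had 114 CPM in MHb against 3.17 CPM. The areas were named by such markers, so these values describe the areas and do not test the names. The sizes of the areas differed between sections, and HF replicate 2 held 209 spots of STR and 26 of OLF, against 118 to 148 and 83 to 109 in the others. It also held 34 spots of MHb, against 59 to 69 in the others. L1 had 331 spots in HF replicate 1, against 208 to 232 in the others. An unnamed cluster led by Cga had 0 spots in HF replicate 2, against 7 to 11. Whether the sections were cut at the same plane was not tested.

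**Figure D1:**
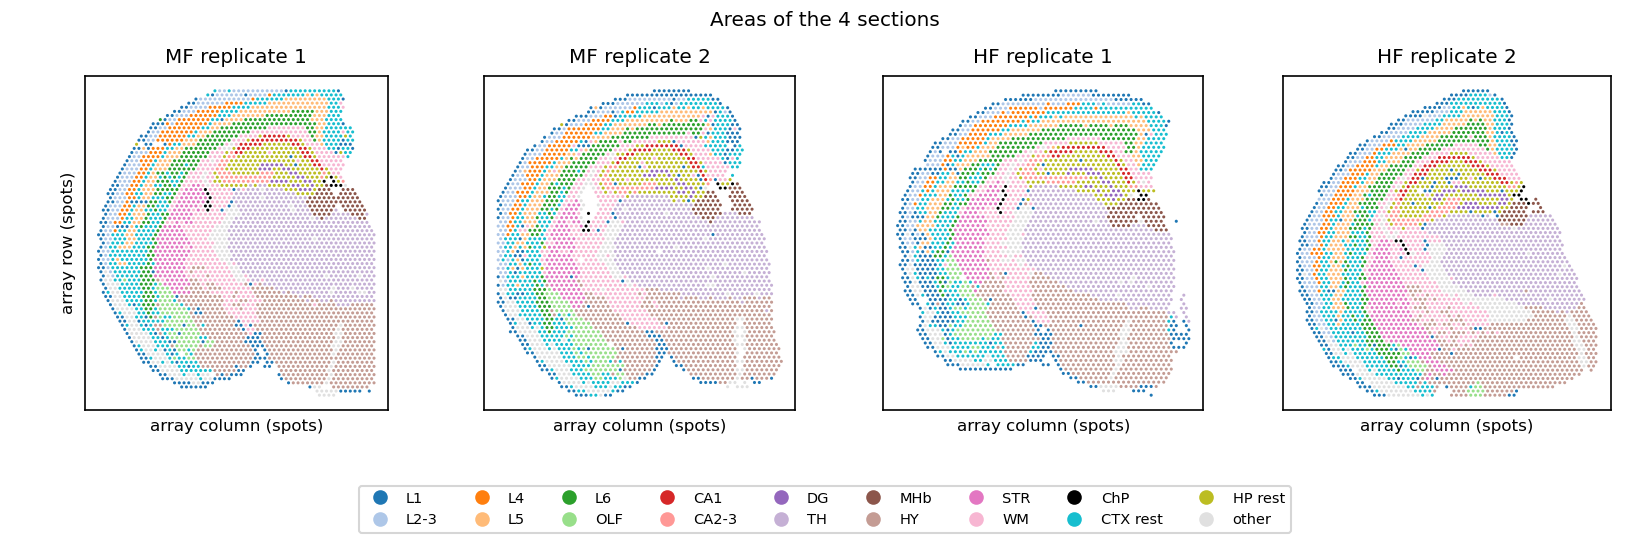
Position of each spot on the array (column and row, in spots) in the 4 sections, coloured by the area its transcripts resembled. Each named area appears in all 4 sections, but the sizes differ. HF replicate 2 has more STR spots (209) and fewer OLF (26) and MHb (34) spots.

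Bhlhe40 (ENSMUSG00000030103, chromosome 6 of GRCm38, 108660629 to 108666925, plus strand) was highest in CA1 and in the outer and middle layers of the cortex, and lowest in CA2-3. In CA1 the MF replicates had 145 and 170 CPM and the HF replicates 216 and 283 CPM, a mean of 204 ± 60.7 CPM (SD, n = 4 sections). CA2-3, the adjoining field of the same pyramidal layer, had 45.0 to 73.4 CPM, so that no section of CA2-3 reached the lowest of CA1. With section as a block, edgeR put CA1 above the mean of the other areas by 0.98 on the log2 scale (SE 0.12, adjusted p = 4.7e-11) and CA2-3 below it (log2 ratio −0.82, SE 0.15, adjusted p = 2.7e-06). TH (156 ± 22.6 CPM), L5 (161 ± 32.2 CPM), L4 (164 ± 38.8 CPM) and L2-3 (168 ± 65.2 CPM) were also higher than the mean of the other areas, with log2 ratios from 0.52 to 0.59. L6, directly below L5, was lower, with 76.6 ± 12.4 CPM (log2 ratio −0.59, adjusted p = 1.5e-06). None of these reached the 2-fold difference required for a call of an area; in CA1 3.83% of genes were called higher. Of the 13 pairs of neighbours in the order of the 14 areas, the ranges overlapped in all 13, and 3 pairs kept their order in each of the 4 sections.

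The order itself differed between the diets. In MF the highest means were those of TH (161 ± 2.86 CPM, n = 2), CA1 (157 ± 17.3 CPM) and L5 (134 ± 7.24 CPM), whereas L2-3 had 114 ± 15.4 CPM. In HF they were those of CA1 (250 ± 47.5 CPM), L2-3 (221 ± 31.9 CPM) and L4 (193 ± 31.9 CPM), with TH at 150 ± 37.5 CPM. A UMI of Bhlhe40 was found in 60.8% to 89.5% of the spots of a section, lowest in the shallowest section and highest in the deepest.

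Bhlhe41 (ENSMUSG00000030256, chromosome 6, 145858243 to 145865558, minus strand), the paralog on the same chromosome, was spread differently. It was high in deep nuclei and in CA1, and low in most layers of the cortex. MHb had 66.5, 66.7, 65.1 and 70.1 CPM in MF replicates 1 and 2 and HF replicates 1 and 2, the narrowest spread of any of its high areas. TH followed with 62.7 ± 5.92 CPM and HY with 61.1 ± 5.60 CPM, and these 3 areas were not separated from one another by their ranges. In edgeR the log2 ratio to the other areas was 0.67 (SE 0.09) in MHb, 0.69 (SE 0.06) in TH and 0.52 (SE 0.06) in HY, with adjusted p-values of 1.3e-09, 5.8e-18 and 4.6e-12. With spots thinned to 5000 UMIs the ratio of MHb was 0.44 and did not pass (adjusted p = 0.089). CA1 was higher as well (59.2 ± 10.8 CPM, log2 ratio 0.65, SE 0.12, adjusted p = 6.3e-06) and had the highest mean in HF. DG, STR and L1 were also above the mean of the other areas, with log2 ratios of 0.42, 0.35 and 0.29. L2-3, L4, L6 and OLF lay between 25.6 and 27.8 CPM on average and were lower than the mean of the other areas, with log2 ratios from −0.54 to −0.66. CA2-3 was again the lowest area, with 22.4, 15.5, 8.66 and 19.3 CPM in the same order of sections. There Bhlhe41 was called lower (log2 ratio −1.09, SE 0.15, adjusted p = 3.4e-09), as were 4.33% of the genes tested in that area. L1 stood above WM, and L2-3 above CA2-3, in all 4 sections without overlap, and the other 11 neighbouring pairs overlapped.

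Arntl (ENSMUSG00000055116, chromosome 7, 113207465 to 113314126, plus strand), the common partner of the activators, had its highest mean in CA1, with 88 and 88.4 CPM in MF and 59.3 and 78.0 CPM in HF; the mean of 78.4 CPM was close to that of L4 (77.5 CPM), and in HF the means of L4 and L2-3 stood above that of CA1. L4 was next, with 82.6 and 79.0 CPM in MF and 71.0 and 77.5 CPM in HF, followed by L2-3 with 63.6 to 78.5 CPM. The edgeR log2 ratios were 0.74 (SE 0.10) in CA1, 0.64 (SE 0.08) in L4 and 0.40 (SE 0.08) in L2-3, with adjusted p-values of 1e-09, 1.2e-10 and 1.6e-05. MHb (40 ± 7.77 CPM) and WM (41.4 ± 3.62 CPM) were lower than the mean of the other areas, by log2 ratios of −0.51 and −0.41. CA2-3 had the lowest mean, 39.6 ± 5.29 CPM, but its log2 ratio after normalization was −0.25 (adjusted p = 0.056). The whole span between the highest and the lowest mean was 1.98-fold.

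Clock (ENSMUSG00000029238, chromosome 5, 76209868 to 76304792, minus strand) had the flattest distribution of the 5, with 1.67-fold between the highest and the lowest mean. It was highest in DG, with 72.3, 61.6, 66.5 and 52.5 CPM in MF replicates 1 and 2 and HF replicates 1 and 2 (log2 ratio 0.47, SE 0.10, adjusted p = 8.2e-05). L2-3 (54.7 ± 9.70 CPM) and L4 (53.1 ± 2.68 CPM) were slightly higher than the mean of the other areas too, with log2 ratios of 0.27 and 0.28. HY was lower, with 38.4 to 46.9 CPM (log2 ratio −0.34, adjusted p = 2.7e-07). CA2-3 had the lowest mean, 38.0 ± 2.88 CPM, but its edgeR log2 ratio after normalization was −0.14 (adjusted p = 0.34). No pair of neighbouring areas kept its order in all 4 sections, and all 13 overlapped.

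Npas2 (ENSMUSG00000026077, chromosome 1, 39193731 to 39363236, plus strand), the paralog of Clock, was highest in layers L2-3 to L6 of the cortex and in the striatum. L2-3 had 98.8, 98.2, 96.3 and 81.6 CPM and STR 83.6, 101.4, 96.2 and 88.2 CPM in MF replicates 1 and 2 and HF replicates 1 and 2. L4, L5 and L6 had means of 88, 87.9 and 89.4 CPM, and the ranges of these 5 areas overlapped. OLF (70.5 ± 2.24 CPM) lay below L2-3, STR, L5 and L6 without overlap, whereas L4, with 60.8 CPM in HF replicate 2, reached below it. TH (55.6 ± 6.44 CPM) lay below OLF in all 4 sections. The log2 ratio to the other areas was 0.90 (SE 0.08, adjusted p = 6.5e-16) in L2-3 and 0.79 (SE 0.08, adjusted p = 1e-13) in STR. For none of the 5 genes did a higher area reach the 2-fold difference required for a call. At the other end, HY (32.1 ± 5.30 CPM), DG (30.4 ± 5.17 CPM), MHb (27.3 ± 6.45 CPM) and CA2-3 (25.0 ± 9.19 CPM) were low. Npas2 was called lower in MHb (log2 ratio −1.15, SE 0.11, adjusted p = 2.7e-14), where 3.74% of genes were, and in CA2-3 (log2 ratio −1.02, SE 0.14, adjusted p = 1.6e-09). DG, which had the highest level of Clock, was thus among the areas with the lowest levels of its paralog.

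**Figure D2:**
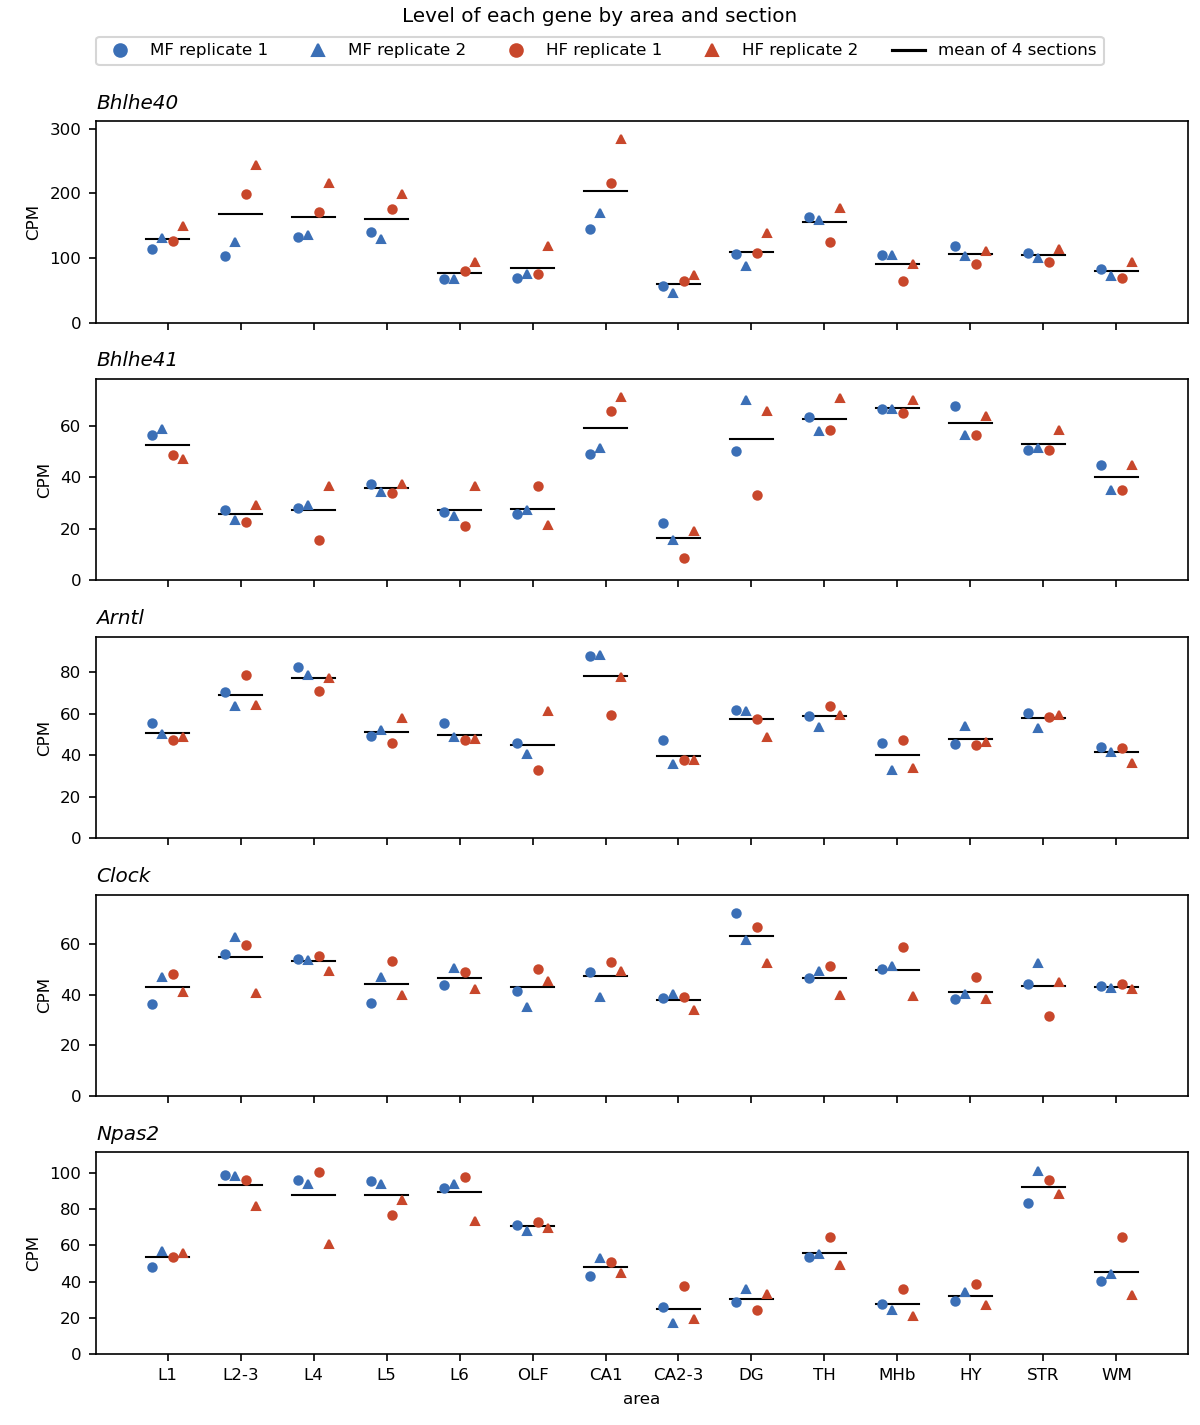
CPM of the 5 genes (vertical axes, starting at 0) in 14 areas, with 1 point per section, blue for MF, red for HF, circles for replicate 1 and triangles for replicate 2, and a black line at the mean of 4 sections. Bhlhe40 is highest in CA1 (204 CPM), Bhlhe41 in MHb (67.1 CPM) and Npas2 in L2-3 and STR, while the means of Clock stay between 38.0 and 63.2 CPM.

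Across the 14 areas, whose points share sections, the log2 mean levels of Bhlhe40 and Arntl had a Pearson's r of 0.84, and those of Bhlhe40 and Bhlhe41 of 0.34. Npas2 had r = 0.09 with Clock and −0.27 with Bhlhe41. Among 8352 genes with a mean of at least 20 CPM, the 5 with the distribution most like that of Bhlhe40 were Rnf145 (r = 0.87), Tyw5, Dedd, Epha10 and Nr1d1 (r = 0.78), the last of them a clock repressor itself. Those most like Bhlhe41 were Tpr (r = 0.92), Mrs2, Rmdn3, Mospd3 and Mepce. For Arntl they were AI593442 (r = 0.88), Bag5, Dusp8, Tlk1 and Gucy1a2, and for Clock Atxn7l2 (r = 0.91), Siah1a, Med15, Parp2 and Ccdc88a. For Npas2 they were Arhgap32 (r = 0.93), Flrt1, Lpcat4, Arpp21 and Phf24. All r-values rest on 14 areas and are a description.

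The spatial order was also visible in Moran's I, the score of spatial autocorrelation that the authors deposited for each feature. It was between 0.0945 and 0.126 for Bhlhe40, which put the gene among the highest 7.12% to 12.1% of the features listed per section. For Npas2 it ran from 0.0393 in HF replicate 1, the shallowest section, to 0.185 in MF replicate 1, the deepest. Clock had the lowest values in 3 of the 4 sections, from 0.0031 in HF replicate 2 to 0.0154 in MF replicate 1.

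Between the diets, Bhlhe40 was higher in HF over the cortex and the hippocampus and not over the deep nuclei, though in HP, OLF and DG this rested largely on HF replicate 2. In CTX the MF replicates stood at 101 and 99.2 CPM, against 136 and 166.5 CPM for the HF replicates. Both HF sections lay above both MF sections, by a log2 fold change of 0.61 (SE 0.10), as they did for 16.6% of all genes tested. The difference was largest in L2-3, where MF had 103 and 125 CPM and HF 199 and 244 CPM (log2 fold change 1.02, SE 0.13). In L4, MF had 133 and 135 CPM and HF 171 and 216 CPM (log2 fold change 0.54, SE 0.14), and L5, with 0.47, and L6, with 0.37, followed in order of depth. In CA1, MF had 145 and 170 CPM and HF 216 and 283 CPM (log2 fold change 0.72, SE 0.17). DG and CA2-3 had log2 fold changes of 0.34 and 0.42 with SEs of 0.18 and 0.21.

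Outside the cortex and hippocampus the groups overlapped or ran the other way. In TH, MF had 163 and 159 CPM and HF 124 and 177 CPM (log2 fold change −0.11, SE 0.16). In HY, MF had 119 and 102 CPM and HF 90.0 and 111 CPM (log2 fold change −0.15, SE 0.13), and STR had a log2 fold change of 0.02 (SE 0.14). MHb was the only area in which both HF sections lay below both MF sections, with 64.4 and 91.1 CPM against 104.5 and 104 CPM (log2 fold change −0.49, SE 0.17). HF replicate 2 held 34 spots of MHb, against 59 to 69 in the other sections. Over the whole section the log2 fold change was 0.13 (SE 0.12), and the groups overlapped.

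Both HF sections were above both MF sections for Bhlhe40 in 8 of the 14 areas, and below in 1. Of all genes tested, the share with both HF sections above was 16.8% in L2-3, L4 and DG, 16.7% in L5, 16.4% in L6, 17.4% in OLF, 16.3% in CA1 and 15.6% in CA2-3, and the share with both below was 16.1% in MHb. In OLF the separation was narrow (75.03 against 74.97 CPM for the nearest sections). In HP, where the share above was 17.4%, MF had 101 and 106.5 CPM and HF 109 and 153 CPM (log2 fold change 0.36, SE 0.14).

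Over all genes tested, a call needed an adjusted p under 0.05 and at least 1.2-fold in edgeR. Calls of single genes are read below for listed genes other than the members. The lists were chosen with earlier results of these sections known, so their calls are not independent of those results. Genes called higher in HF were 0.112% of 13383 in CTX, 0.187% in L2-3, 0.211% in L4 and 0.0907% in CA1. In either direction they were 0.202% in CTX, 0.522% in L2-3, 0.534% in L4, 0.147% in L5 and in CA1, 0.0794% in L6 and 0.0411% in OLF. The share was 0.0253% in L1, 0.382% in CA2-3, 0.0978% in DG, 0.0899% in MHb, 0.016% in WM, 0.0162% in HP and 0.0537% in STR. In TH, in HY and over the whole section 0 genes were called by edgeR, though 951, 895 and 1020 had an unadjusted p under 0.05 and DESeq2 called 6, 5 and 23.

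HF replicate 2 had a higher level of Bhlhe40 than HF replicate 1 in all 14 areas, and the log2 fold change was smaller without it. Without HF replicate 2 the value was 0.45 in CTX, 0.84 in L2-3, 0.48 in CA1 and −0.06 over the whole section. Without HF replicate 1 it was 0.75, 1.15, 0.89 and 0.30. In HP, OLF and DG little of the difference was left without HF replicate 2, with values of 0.08, 0.08 and 0.11, and L4 and L6 had 0.37 and 0.23. In TH the sign turned without HF replicate 1 (0.13), and in MHb the value was then −0.20. With every spot thinned to 5000 UMIs the value was 0.61 in CTX, 0.64 in L2-3 and 0.41 in CA1, and −0.98 in MHb. The areas came from the same 4 sections, so their values are not independent of each other.

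**Figure D3:**
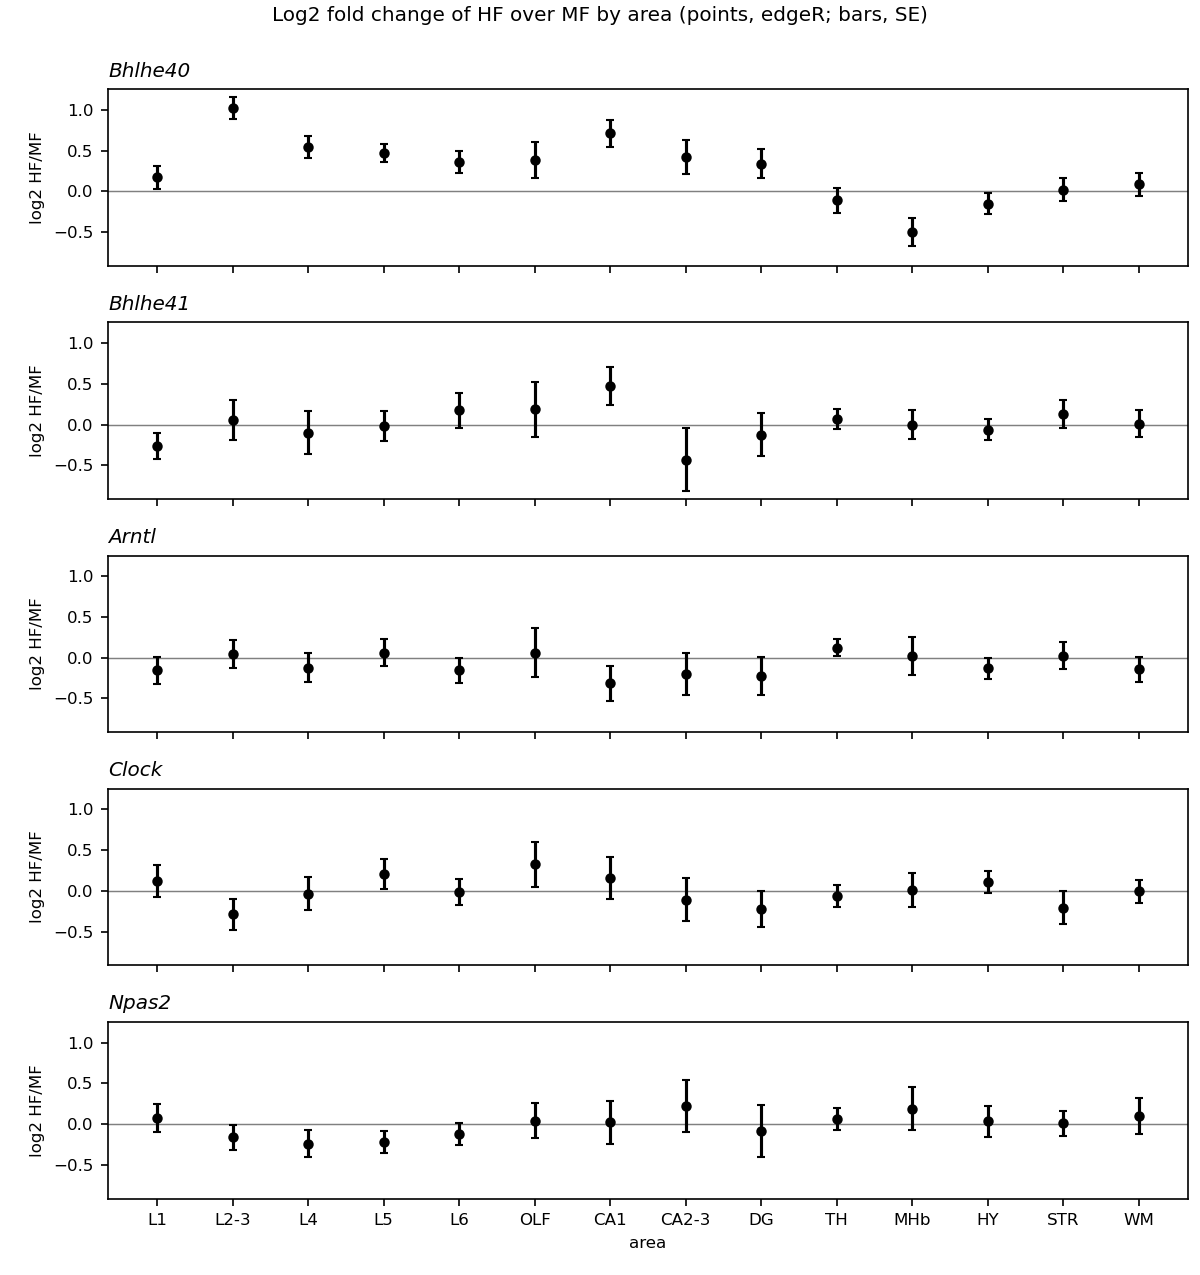
Log2 fold change of HF over MF (vertical axis, 0 means no difference) for the 5 genes in 14 areas, with points for the edgeR estimate from 2 sections per diet and bars for its SE. Bhlhe40 runs from 1.02 in L2-3 to −0.49 in MHb, and the other 4 genes lie between −0.43 and 0.47.

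A ratio of 2 areas of the same section is free of any factor common to that section. The share of all genes whose ratios separate the diets was not computed, so each separation of these ratios is a description. The ratio of CTX to HY for Bhlhe40 was 0.85 and 0.97 for MF and 1.51 and 1.5 for HF, a contrast on which the gene had been selected and which is therefore a description. The ratio of CTX to TH was 0.62 for both MF replicates and 1.1 and 0.94 for HF. For L2-3 over TH the values were 0.63 and 0.78 in MF and 1.60 and 1.38 in HF. CA1 over HY gave 1.22 and 1.66 in MF and 2.40 and 2.55 in HF. By contrast CA1 over CA2-3, both parts of the hippocampus, overlapped between the diets, with 2.59 and 3.77 in MF and 3.32 and 3.86 in HF.

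For Bhlhe41 the ratio of CTX to HY was 0.44 and 0.50 in MF and 0.47 and 0.51 in HF. The ratio of CTX to HY of Arntl was 1.34 and 1.05 in MF and 1.26 and 1.31 in HF. For Clock and Npas2 it lay within 1.05 to 1.17 and 2.31 to 3.04. Of these 4 genes Clock had HF ratios below both MF ratios, and the diets overlapped for the other 3. For CTX over TH the diets did not overlap for any of the 4, in places by small gaps. HF was lower for Bhlhe41 (0.468 and 0.483 in MF against 0.458 and 0.459 in HF). HF was also lower for Arntl (1.03 and 1.06 against 0.883 and 1.02) and Npas2 (1.65 and 1.56 against 1.38 and 1.51). For Clock HF was higher (0.942 and 0.955 against 0.966 and 1.08). CA1 over HY was higher in HF for Bhlhe41, with 0.723 and 0.911 in MF and 1.16 and 1.12 in HF, and overlapped for Arntl, Clock and Npas2. The ratio of CTX to HY was also higher in both HF sections for Per1 (0.9 and 0.955 in MF, 1.23 and 1.25 in HF), Per2 (0.754 and 0.691 in MF, 1.099 and 0.954 in HF) and Nr1d1 (1.28 and 1.11 in MF, 1.37 and 1.48 in HF).

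**Figure D4:**
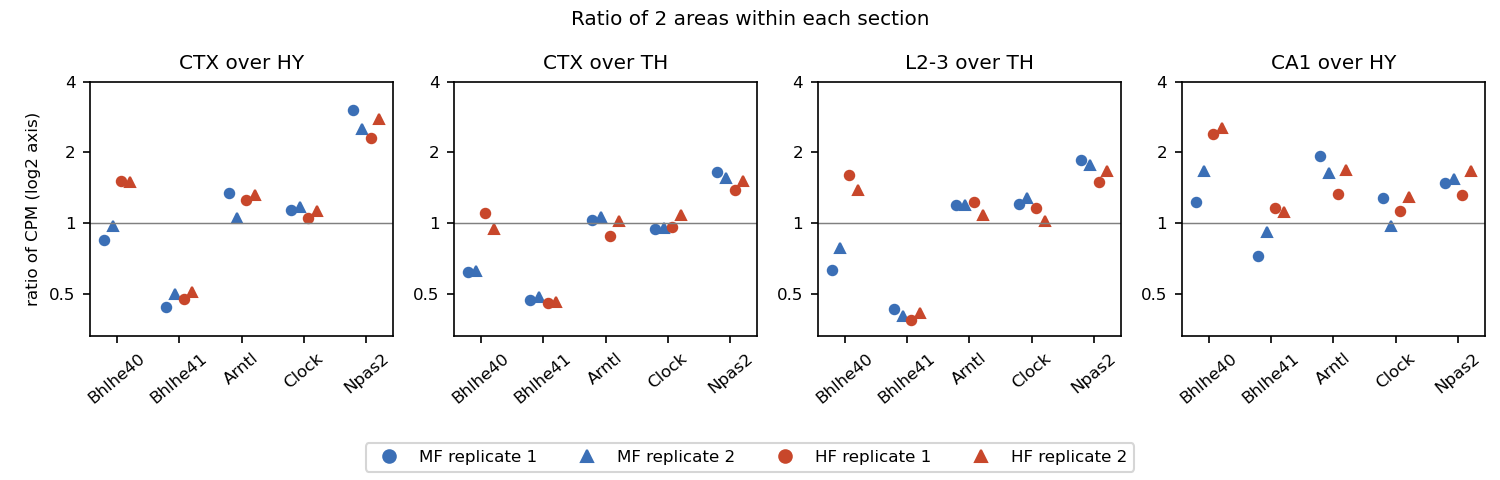
Ratio of CPM between 2 areas of the same section (log2 axis) for the 5 genes, with 1 point per section, blue for MF and red for HF. For Bhlhe40 the red points lie above the blue ones in all 4 panels (CTX over HY, 1.5 and 1.51 against 0.85 and 0.97), while for Arntl and Npas2 the colours mix in CTX over HY.

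Bhlhe41 differed little between the diets in most areas. In CTX it had 29.7 and 28.1 CPM in MF and 26.7 and 32.5 CPM in HF (log2 fold change 0.05, SE 0.12). Over TH, MHb and HY the log2 fold changes were 0.07, 0.00 and −0.06. In CA1 it had 48.9 and 51.3 CPM in MF and 65.6 and 71.1 CPM in HF (log2 fold change 0.47, SE 0.24). The groups did not overlap there, where 16.3% of all genes had both HF sections above. They did not overlap in L1 either, where HF was lower (log2 fold change −0.27, SE 0.16) and 16.4% of genes had both HF sections below. In the other 12 areas they overlapped.

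Arntl had 60.8 and 56.6 CPM in MF and 56.3 and 60.6 CPM in HF in CTX (log2 fold change 0.01, SE 0.10). In CA1, its highest area in MF but not in HF, both HF sections were below both MF sections (59.3 and 78.0 against 88 and 88.4 CPM, log2 fold change −0.31, SE 0.21). It was below MF in both HF sections in 5 of 14 areas and above in 1, at log2 fold changes between −0.31 and 0.12. The share of all genes with both HF sections below was 16.4% in L1, 19.4% in L4, 16.8% in L6, 17.4% in CA1 and 17.7% in DG, and the share above was 20.2% in TH.

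Clock in CTX had 43.7 and 47.0 CPM in MF and 49.4 and 43.3 CPM in HF (log2 fold change 0.04, SE 0.10). The groups overlapped in 12 of 14 areas, and the log2 fold changes ran from −0.29 in L2-3 to 0.33 in OLF. In OLF and CA1 both HF sections of Clock were above both MF sections, as they were for 17.4% and 16.3% of all genes. Npas2 in CTX had 88 and 86.1 CPM in MF and 88.8 and 74.3 CPM in HF (log2 fold change −0.09, SE 0.10). Both HF sections were below both MF sections in L2-3 and L5, with log2 fold changes of −0.17 (SE 0.15) and −0.22 (SE 0.13), as were 19.4% and 17.9% of all genes. For these 4 genes the SE of the log2 fold change was 0.10 to 0.12 in CTX and 0.22 to 0.39 in CA2-3 and DG, the areas with few spots.

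The 2 HF sections differed from each other in Clock and Npas2 as well, in the opposite sense to Bhlhe40, but not so in Arntl. HF replicate 2 was below HF replicate 1 in 13 of 14 areas for Clock and in 11 of 14 for Npas2, and above it in 14 of 14 for Bhlhe40 in 12 of 14 for Bhlhe41 and in 9 of 14 for Arntl. In L4, for example, Npas2 had 101 CPM in HF replicate 1 and 60.8 CPM in HF replicate 2, while Bhlhe41 had 15.5 and 36.7 CPM. Between the 2 MF sections Bhlhe40 was higher in replicate 2 in 5 of 14 areas. HF replicate 1 was the shallowest section, and the part of depth in this difference was not tested.

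Over CTX, HP, TH, HY and STR together, with section as a block, the log2 fold change of Bhlhe40 was lower than that of CTX by 0.25 in HP, 0.72 in TH, 0.77 in HY and 0.64 in STR. Its range over the 5 regions was 0.77, against 0.18 for Bhlhe41, 0.25 for Arntl, 0.23 for Clock and 0.29 for Npas2. Bhlhe40 had been selected by this same contrast, so its range is a description. Of all 13928 genes 0.151% were called by this term.

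Other genes of the clock were read from a list of 21 repressors and outputs, 20 of them with a feature (Ciart had none) and 18 tested in CTX. Of the 18, 2 rose in HF in CTX, none fell, and the median log2 fold change was 0.08 against 0.00 for all genes. Per1, a repressor of the loop that is also induced by activity, had 54.6 and 51.2 CPM in MF and 79.2 and 79.7 CPM in HF (log2 fold change 0.60, SE 0.09, adjusted p = 0.013). Per2, its paralog, had 24.9 and 25.2 CPM in MF and 37.3 and 41.8 CPM in HF (log2 fold change 0.68, SE 0.11, adjusted p = 0.017). In L2-3, where Bhlhe40 differed most, 2 of 18 rose. Per2 had 23.2 and 18.5 CPM in MF and 57.1 and 57.1 CPM in HF there (log2 fold change 1.41, SE 0.21, adjusted p = 1.5e-06). Nr1d1, the REV-ERBα repressor of Arntl, had 83 and 66.8 CPM in MF and 105 and 136 CPM in HF (log2 fold change 0.70, SE 0.15, adjusted p = 0.0041).

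In L4, 3 of 18 listed clock genes rose, namely Per1 (log2 fold change 1.1, adjusted p = 1.4e-06), Nr1d1 (0.90, adjusted p = 2.1e-07) and Per2 (1.02, adjusted p = 0.017). In CA1, 1 of 17 rose, which was Per2 (log2 fold change 1.31, adjusted p = 0.0047). None was called in HP, TH, HY or STR, where the list's median was 0.07, 0.11, 0.13 and 0.16. Dbp, an output that the activators drive through E-boxes, was called in no area and had log2 fold changes between −0.20 and 0.35. Unlike Bhlhe40, Per2 had a log2 fold change above 0 in all 14 areas, from 0.14 in MHb to 1.41 in L2-3, and Per1 in 13 of 14. In TH, where Bhlhe40 overlapped, Per1 had 61.2 and 57.5 CPM in MF and 80.3 and 77.4 CPM in HF without a call (log2 fold change 0.40, SE 0.10).

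Each of these 8 calls of Per1, Per2 and Nr1d1 was lost under at least 1 alternative, with the same direction. Per1 in CTX was lost without MF replicate 2 (0.55), Per2 in CTX without MF replicate 1 (0.67) and Nr1d1 in L4 without HF replicate 2 (0.66). Nr1d1 in L2-3 was lost without MF replicate 2 (0.59) or HF replicate 2 (0.44), and Per2 in CA1 without MF replicate 1 (1.90) or MF replicate 2 (1.1). Per2 in L4 was lost without MF replicate 2 (0.85), HF replicate 1 (0.995) or HF replicate 2 (1.04).

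**Figure D5:**
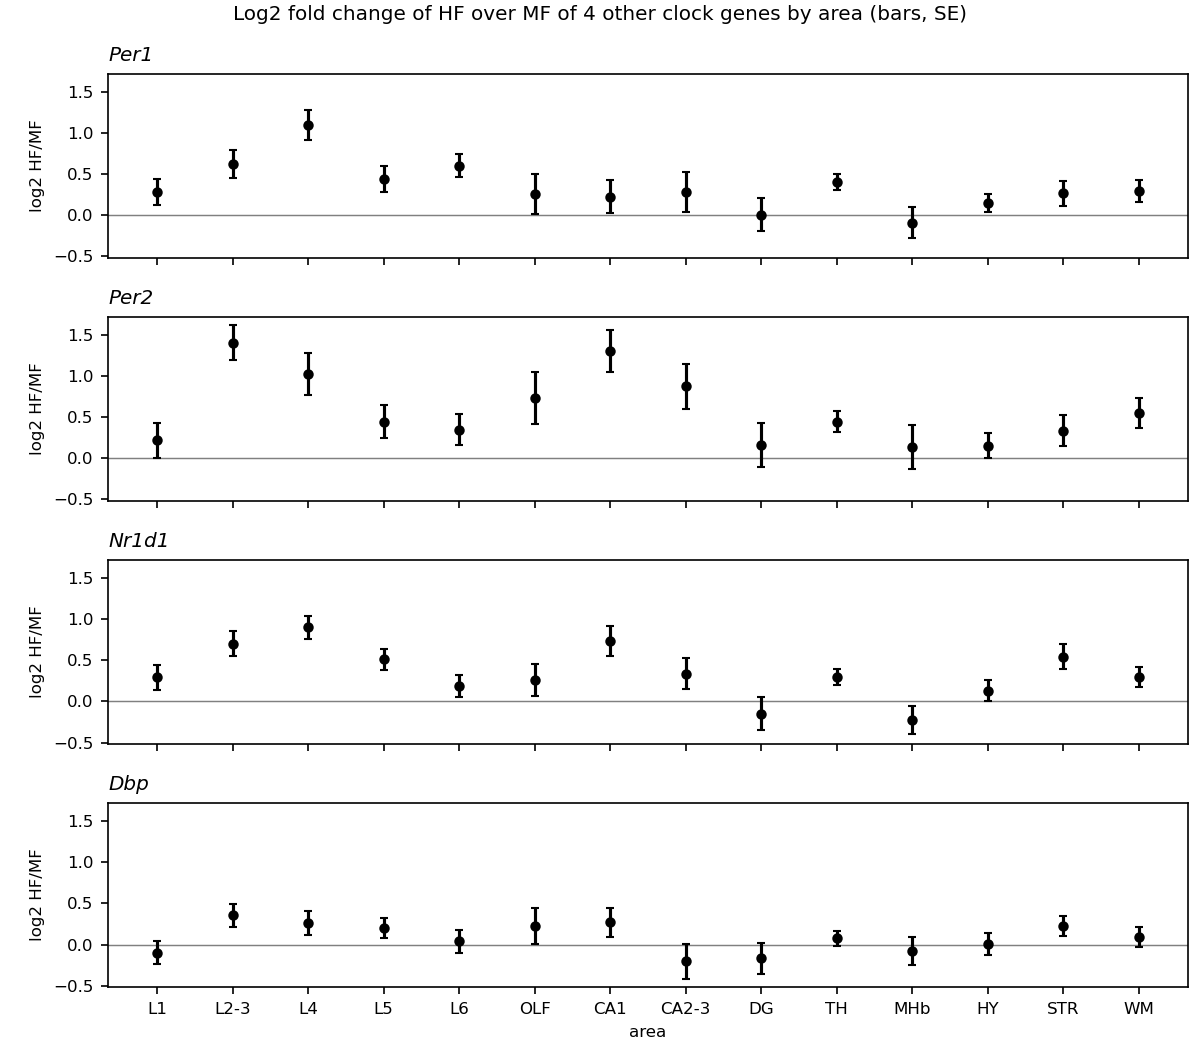
Log2 fold change of HF over MF (vertical axis) for Per1, Per2, Nr1d1 and Dbp in 14 areas, with points for the edgeR estimate from 2 sections per diet and bars for its SE. Per2 lies above 0 in every area and reaches 1.41 in L2-3, Nr1d1 falls below 0 in MHb and DG, and Dbp stays between −0.20 and 0.35.

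Relatives of the members by protein family did not pass the test. Of 14 other bHLH-PAS genes, the family of CLOCK, NPAS2 and BMAL1, 12 were tested in CTX and none was called, with a median log2 fold change of 0.03. Of 8 genes with a bHLH-Orange domain, the family of BHLHE40, 7 were tested in CTX and none was called, with a median of −0.07.

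Bhlhe40 is also induced by activity, low oxygen and glucocorticoids in other settings, and lists for each were read beside it. Of 20 activity-induced genes, 9 rose in CTX and none fell, and the median log2 fold change was 0.69. Egr1, an immediate early transcription factor, had 80.0 and 90.3 CPM in MF and 328 and 607 CPM in HF (log2 fold change 2.48, SE 0.19, adjusted p = 2.2e-05). Fos had 6.29 and 5.50 CPM in MF and 21.6 and 17 CPM in HF (log2 fold change 1.69, SE 0.17, adjusted p = 4e-04), and Egr2 also rose by 1.62. Arc, Junb, Nr4a1, Nr4a3, Dusp6 and Egr4 were called in CTX as well, with log2 fold changes of 1.47, 1.14, 1, 0.85, 0.79 and 0.68. In L2-3 8 of 20 rose, in L4 8 of 17, in CA1 2 of 14, in HP 1 of 19 and in STR 2 of 20, and none passed in TH or HY. The medians were 0.26 in TH and 0.39 in HY. Egr1 was called in 11 of 14 areas, among them MHb, where Bhlhe40 was lower in HF. Arc and Junb were higher in HF replicate 1 than in HF replicate 2 in CTX (193 against 87.2 CPM and 96.6 against 50.3 CPM), the reverse of Bhlhe40 and Egr1. The call of Junb in CTX was lost under DESeq2, with thinning and at the lower Leiden resolution. Without HF replicate 1 the log2 fold change of Junb was 0.62.

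None of 9 hypoxia-induced genes was called in CTX, where their median log2 fold change was 0.04, or in L2-3, where 7 were tested and the median was −0.09. Of the glucocorticoid-induced genes 9 were tested in CTX. Mt2, a metallothionein, fell there, with 426.5 and 388 CPM in MF and 290.5 and 196 CPM in HF (log2 fold change −0.74, SE 0.13, adjusted p = 0.024), and it was called lower in 9 of 14 areas. That call in CTX was lost under DESeq2 and at the lower Leiden resolution. Without HF replicate 2 the log2 fold change of Mt2 was −0.48. Hypothalamic peptides, read as markers of another region, also moved: of 15 tested in CTX, Avp was called higher and Hcrt and Pomc lower, and in STR Hcrt and Pmch were called lower. Pmch was called lower in L2-3, L4, L5, L6, CA2-3 and DG as well, and it was also among the called genes in CA1 and MHb. Avp in CTX had 0.809 and 0.949 CPM in MF and 2.58 and 39.2 CPM in HF, so that HF replicate 2 set its mean, and Pomc had 22.4 CPM in MF replicate 1 against 0.254 to 2.94 CPM in the others. Their part in the levels of Bhlhe40 was not tested.

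Markers of other cells moved with the diets in the same areas. The summed level of 8 oligodendrocyte markers in CTX was 12207 and 11695 CPM in MF and 9729 and 9080 CPM in HF, and all 8 markers were lower in both HF sections. In L2-3 it was 7852 and 7725 CPM in MF and 5103 and 4164 CPM in HF, again with all 8 lower, and in TH, where Bhlhe40 overlapped, 26744 and 28312 against 22457 and 22402 CPM. In HY it was 20017 and 20094 CPM in MF and 19504 and 19785 CPM in HF. The 6 excitatory neuron markers summed to 4487 and 4381 CPM in MF and 4507 and 4731 CPM in HF in CTX, with 2 of 6 higher in both HF sections and 1 lower. Their sum was higher in both HF sections in HP, L4, L5, L6, CA1 (4617 and 4559 against 4968 and 5155 CPM) and CA2-3. It was lower in both in MHb (1988 and 2021 against 1972 and 1854 CPM). In HY it was lower as well (1150 and 1142 against 1105 and 1137 CPM). The diets overlapped for the sum in L2-3 (4397 and 4250 against 4365 and 4852 CPM), OLF and DG, where both HF sections of Bhlhe40 were higher. Single markers did not all follow the sum. Of the 6, 3 were higher and 1 lower in both HF sections in HP and L5, and 2 and 1 in L6. In CA1 the numbers were 3 and 0, in L4 2 and 0, in CA2-3 1 and 1, and in MHb 0 and 1. The 8 astrocyte markers summed to 1687 and 1580 CPM in MF and 1552 and 1407 CPM in HF in CTX, with 3 of 8 lower in both HF sections. No oligodendrocyte or excitatory neuron marker was at 0 in any section of CTX. The part of these differences in the levels of Bhlhe40 was not tested.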

How the data were processed

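The authors hybridised Visium-FFPE probes to brain sections, aligned the reads to mm10 with Space Ranger 2.0.0 and deposited raw UMI counts per spot; per the file headers they also deposited Moran's I, a score per feature, and Seurat is named in the submitters' processing notes. Members, lists and areas of interest were chosen with earlier results of these data known. Spots under 500 UMIs or 250 genes were removed. Spots were clustered (2000 variable genes scaled within section, 30 principal components, 20 neighbours, Leiden resolution 1; scikit-learn 1.9.0, leidenalg 0.10.2) without 107 features, among them the members and listed genes. Clusters took the class with the most of its markers, at least 3, among 50 leading genes, if at least 1 was among the top 10 and no other class had more there, and stayed unnamed otherwise; doublets do not apply to spots. UMIs were summed per section and area, so each section is 1 replicate; nothing states that sections of a group are from separate litters, and p-values measure only the spread between these sections.

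For HF against MF, edgeR 4.0.16 in R 4.3.3 fitted quasi-likelihood models after TMM scaling and filterByExpr, with Benjamini-Hochberg adjustment; a call needed an adjusted p under 0.05 and a 1.2-fold change. Each of 14 areas with at least 10 spots in every section was compared with the mean of the others, with section as a block (2-fold). Named genes were the members, Per1, Per2, Dbp, Nr1d1 and Ciart and listed genes called in a main region; likeness named 5 genes per member. On simulated sections the test recovered 92.5% of 200 genes changed 2-fold in CTX (11 false calls) and 73% in DG (8 false calls), but 65.5% and 23.5% of those changed 1.5-fold. Replicate numbers did not pair the sections. Positions came from GENCODE vM21 (19451 of 19465 features matched by Ensembl identifier). An exact permutation test over 2 and 2 sections cannot reach 0.05 and was not run.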

Additional observations from a re-analysis of the deposited data

Results flagged for a closer look

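The change between the diets differed between regions for Junb and Egr1 of the activity-induced list, by the area by diet term of edgeR over CTX, HP, TH, HY and STR. The log2 fold change in HY minus that in CTX was −0.92 for Junb (adjusted p = 0.013) and −0.68 for Egr1 (adjusted p = 0.048, close to the threshold). In CTX the log2 fold change of Junb ran from 0.62 to 1.55 with 1 section left out, and that of Egr1 from 1.97 to 2.86. These ranges are of the fold change in CTX and do not show how stable the difference between regions was. Without MF replicate 1 the area by diet term did not call both genes. Both genes come from a list chosen with earlier results of these sections known. Egr1 was higher in both HF sections in each region. For Bhlhe40 the same difference was −0.77, given without a test, since the gene had been chosen on it.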

How the results depend on the processing

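Genes called over the whole section were 0, with 23 under DESeq2, 5 with no filter on low counts, 1 with spots thinned, and 0 to 1166 with 1 section left out. In CTX 27 were called, 150 with no filter, 7 at Leiden resolution 0.6 and 36 to 812 with 1 section left out. In HP 2 were called, 18 by library size alone, 18 under DESeq2, 109 with no filter, 5 with thinning, 26 in interior spots and 6 to 446 with 1 section left out. In TH 0 were called, 6 under DESeq2, 68 with no filter, 1 with thinning and 0 to 490 with 1 section left out. In HY 0 were called, 5 under DESeq2, 32 with no filter and 0 to 816 with 1 section left out. In STR 6 were called, 2 under DESeq2, 20 with no filter and 0 to 146 with 1 section left out. The area by diet count was 21, 32 with thinning, and 1 (without MF replicate 1) to 426 (without HF replicate 1) with 1 section left out. In L2-3, L4 and CA1 56, 53 and 13 genes were called, 15, 10 and 1 under DESeq2, and 27 to 130, 14 to 87 and 0 (without MF replicate 1) to 23 with 1 section left out. The cause was not tested. Under the replicate block, calls numbered 44 in CTX, 16 in HP and 20 in TH, and the log2 fold change of Bhlhe40 in CTX was 0.60; same-numbered sections did not deviate together (r = −0.165 over the whole section). With crossed numbers the counts were 11 over the whole section, 44 in CTX, 68 in HP, 108 in TH and 24 in STR, an alternative chosen after seeing the data. The log2 fold change of Bhlhe40 ran from 0.45 to 0.75 in CTX and from −0.32 to −0.01 in HY with 1 section left out. For Arntl it turned from −0.12 to 0.15 in L4 with thinning and from −0.14 to 0.15 in WM in interior spots. The log2 ratio of MHb for Bhlhe41 was 0.44 with thinning (adjusted p = 0.089). Depth limits the small areas.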
